A study of Mus musculus with 9 samples.

Results

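The integrated stress response and the unfolded protein response were followed through 37 genes, taken by name from a list of ATF4-axis genes and of ER chaperone or unfolded protein response genes. The rule used their names and no measured value, though the genes and lists were chosen with earlier results of these data known. They were 37 of the 55416 genes in the count table, and all 37 were among the 13679 genes that passed the filter on low counts. The table holds 38 entries for them because *Ddit3* appears under 2 identifiers, and its second entry, nested inside the first, had 0 counts in every library and was not tested. The genes were read in 5 groups by role, namely 8 regulators of the ATF4 axis, 8 enzymes of amino acid and one-carbon synthesis, 3 amino acid transporters, 13 chaperones and folding enzymes of the ER, and 5 genes of ER stress sensing, its transcription factors and ER-associated degradation (ERAD).

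In the integrated stress response, kinases that sense amino acid shortage, viral RNA, haem shortage or ER stress phosphorylate eIF2α, which slows translation in general while the transcription factor ATF4 is translated more and switches on genes of amino acid uptake and synthesis. In the unfolded protein response, the ER sensors PERK, IRE1 and ATF6 react to unfolded protein in the ER. PERK feeds into the ATF4 axis, IRE1 splices the *Xbp1* mRNA, and cleaved ATF6 moves to the nucleus, so that chaperones and ERAD genes are transcribed. Osteoblasts secrete large amounts of collagen, and ATF4, XBP1 and the ER chaperones are known for their part in osteoblast differentiation and collagen secretion.

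The cells were MC3T3-E1, a mouse pre-osteoblast line from calvarial bone, labelled as wild type. All 3 conditions shared the same differentiation, in a medium with 10 mM β-glycerophosphate (BGP, an organic phosphate), ascorbic acid and dexamethasone, and differed in what was added at day 27. Control received no added phosphate, BGP received 4 mM BGP, and NaHPO4 received 4 mM of a mixture of Na2HPO4 and NaH2PO4, an inorganic phosphate. Treatment lasted 16 h and RNA was harvested at day 28. The labels give the osteogenic medium until day 27, whereas the study's methods leave BGP out of the medium for the last week. Each condition had 3 libraries, so that the experiment compares an added organic and an added inorganic phosphate with untreated cells and with each other. By the study's methods, sodium phosphate from the basal medium was present in every condition, Control included. The study also infers from alkaline phosphatase activity that these cells turn BGP into inorganic phosphate. The labels do not say whether the 3 libraries came from separate cultures, and the p-values therefore measure the spread between these libraries, which may be technical.

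Total counts were 21390839 to 25646046 in Control, 22331071 to 23546609 with BGP and 25203779 to 28234404 with NaHPO4, and mitochondrial genes took 2.51% to 2.70% of the counts. No pair of libraries was as close as sampling noise alone allows, since even within a condition the chi-square statistic over genes was at least 2.64 times its degrees of freedom. Of 13 osteoblast and osteocyte markers, 13 passed the count filter. Of the markers of adipocytes, muscle, blood cells and endothelium, 4 each, 1, 1, 1 and 0 passed, each list summed to at most 15.7 CPM in a library, and *Myod1*, *Myog*, *Kdr* and *Itgam* had 0 counts in every library. Of 4 cartilage markers, 2 passed and *Matn1* had 0 counts in every library. Summed, they stood at 205 to 264 CPM in Control, 299 to 404 CPM with BGP and 142 to 225 CPM with NaHPO4, with BGP above the other 6 libraries, and their part in the results was not tested. In RNA from a whole culture, fewer cells of a type and less RNA per cell cannot be told apart. Expression is given as CPM (counts scaled to library size, as edgeR defines them) after TMM scaling, in the order of replicates 1, 2 and 3. A log2FC is the first condition minus the second on the log2 scale, with its standard error (SE), and FDR is the Benjamini-Hochberg adjusted p-value of edgeR's quasi-likelihood test over the 13679 genes. A gene passed the test at an FDR below 0.05, and DEGs also had an absolute log2FC above 0.5.

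The DNA elements through which these responses are known to act were located first. The list was made of known genes of these responses, so a share of elements above that of all genes is no separate evidence. The ER stress response element (CCAAT and CCACG with 9 bases between them) is bound by ATF6 and XBP1 together with the CCAAT-binding factor NF-Y. ER stress response element II (ATTGG and CCACG with 1 base between them) and the unfolded protein response element (TGACGTG) are bound by the same ER stress factors, and the C/EBP-ATF response element (TGATG and AA with 1 base between them) by ATF4 with a C/EBP partner. Both strands of the RefSeq promoter windows (GRCm38.p6), of 250 bases before and 50 bases after each start, were searched. Windows were given for 33 of the 37 genes, as 36 windows that each matched GRCm39 once. *Atf6*, *Hyou1*, *Manf* and *Slc7a5* had no entry.

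The ER stress response element was found for 7 of the 33 genes (21.2%), against 0.137% of all 27025 genes with a window, and these 7 were all ER chaperones or folding enzymes. They are printed 5′ to 3′ in the direction of the element with 5 bases on either side, the 19 bases of the element in capitals, at GRCm39 positions, to show both fixed ends of the element and the 9 bases that vary between them.
Hspa5 (chr2:34662032-34662060, plus strand): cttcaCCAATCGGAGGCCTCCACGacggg
Pdia6 (chr12:17316487-17316515, plus strand): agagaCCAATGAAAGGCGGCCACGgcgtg
Calr (chr8:85573699-85573727, plus strand): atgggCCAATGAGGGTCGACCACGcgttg
Canx (chr11:50216622-50216650, minus strand): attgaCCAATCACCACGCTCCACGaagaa
Dnajc3 (chr14:119175234-119175262, plus strand): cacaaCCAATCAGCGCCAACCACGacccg
Creld2 (chr15:88703718-88703746, minus strand): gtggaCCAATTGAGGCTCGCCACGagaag
Hsp90b1 (chr10:86541497-86541525, minus strand): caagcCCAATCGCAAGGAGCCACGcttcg
Hsp90b1 (chr10:86541392-86541420, plus strand): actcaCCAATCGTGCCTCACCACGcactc
*Hsp90b1* held 2 copies in opposite orientations. By the GENCODE annotation of GRCm39, the elements of *Pdia6*, *Calr*, *Canx*, *Dnajc3* and *Creld2* and the copy of *Hsp90b1* at position -212 lay before the gene, whereas the element of *Hspa5* and the other copy of *Hsp90b1* lay in non-coding exon sequence of transcripts that start further upstream than RefSeq's.

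Element II was found for 1 gene, *Herpud1*, against 0.0444% of all genes, and the unfolded protein response element for 1 gene, *Hspa5*, against 2.22%. The C/EBP-ATF response element was found for 5 of the 33 genes (15.2%), against 4.51% of all genes. The first 2 sequences show the remaining ER stress elements and the next 5 the C/EBP-ATF matches of ATF4-axis and ERAD genes, the element again in capitals.
Herpud1 (chr8:95113000-95113020, plus strand): cgctgATTGGGCCACGttgga
Hspa5 (chr2:34661940-34661956, plus strand): agcaaTGACGTGagttg
Asns (chr6:7693220-7693237, minus strand): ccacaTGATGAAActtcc
Chac1 (chr2:119181525-119181542, minus strand): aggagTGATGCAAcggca
Pck2 (chr14:55777615-55777632, minus strand): gatacTGATGTAActttg
Herpud1 (chr8:95112940-95112957, minus strand): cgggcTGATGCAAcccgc
Trib3 (chr2:152185954-152185971, plus strand): ccggcTGATGTAAacctg
The matches of *Asns*, *Chac1*, *Pck2* and *Trib3* fell in non-coding exon sequence and those of *Herpud1* before the gene. A match describes these letters only, and the windows say nothing of elements farther from a start.

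**Figure D1:**
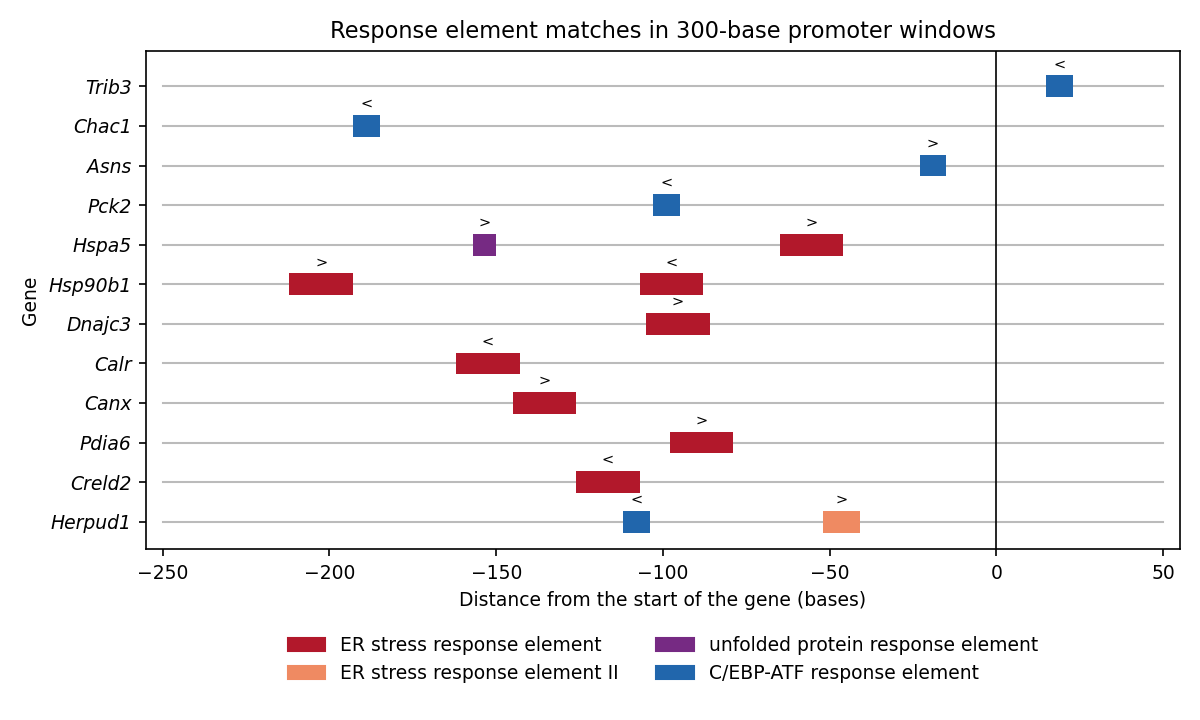
Positions of the 15 matches in the promoter windows of the 12 genes that held any, in bases from the RefSeq start (0, vertical line), with > for the strand of the gene and < for the opposite strand. The ER stress response element (red) sat between positions -212 and -47 in 7 ER chaperone genes, and the C/EBP-ATF matches (blue) in *Trib3*, *Chac1*, *Asns*, *Pck2* and *Herpud1*.

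With NaHPO4, 12 of the 37 genes passed the test against Control (32.4%), 10 higher and 2 lower, where 7.38% of all tested genes passed (3.43% higher, 3.95% lower). With BGP, 4 genes passed against Control (10.8%), 3 higher and 1 lower, where 2.53% of all genes passed (1.86% higher, 0.665% lower). Between BGP and NaHPO4, 11 genes passed (29.7%), 3 higher and 8 lower with BGP, where 5.38% of all genes passed (3.33% higher, 2.05% lower). In all, 15 of the 37 genes passed in at least 1 comparison and 22 in none, where 10.2% of all tested genes passed in at least 1. These comparisons share libraries, so their counts are not independent. The median SE was 0.044 to 0.045 for the 37 genes and 0.035 for the 13 ER chaperones, against 0.069 to 0.070 for all tested genes. Smaller differences could therefore pass in the list than in most genes, which limits each comparison of shares. By limma on the TMM table, 8 genes passed with NaHPO4, 0 with BGP and 3 between BGP and NaHPO4.

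The differences were small, and the largest absolute log2FC of a gene that passed was 0.36, that of *Atf6* with NaHPO4. No gene of the list was a DEG in any comparison, with edgeR, DESeq2 or limma, where 0.556%, 0.716% and 0.585% of all genes were (BGP against Control, NaHPO4 against Control, BGP against NaHPO4). At an unadjusted p below 0.05, 11, 17 and 15 of the 37 genes passed, where 13.4%, 19.9% and 16.9% of all genes did. The median log2FC of the 37 genes was 0.03 with BGP and 0.05 with NaHPO4, where that of all tested genes was -0.0043 and 9.75e-05. With BGP all 3 libraries were above Control for 9 genes and below for 1, where this held for 9.74% and 8.79% of all tested genes (18.5% together). With NaHPO4 they were above Control for 13 and below for 5, where this held for 11.6% of all genes in each direction (23.2% together). BGP was above NaHPO4 for 7 and below for 10, where this held for 10.8% and 10.4% (21.2% together).

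**Figure D2:**
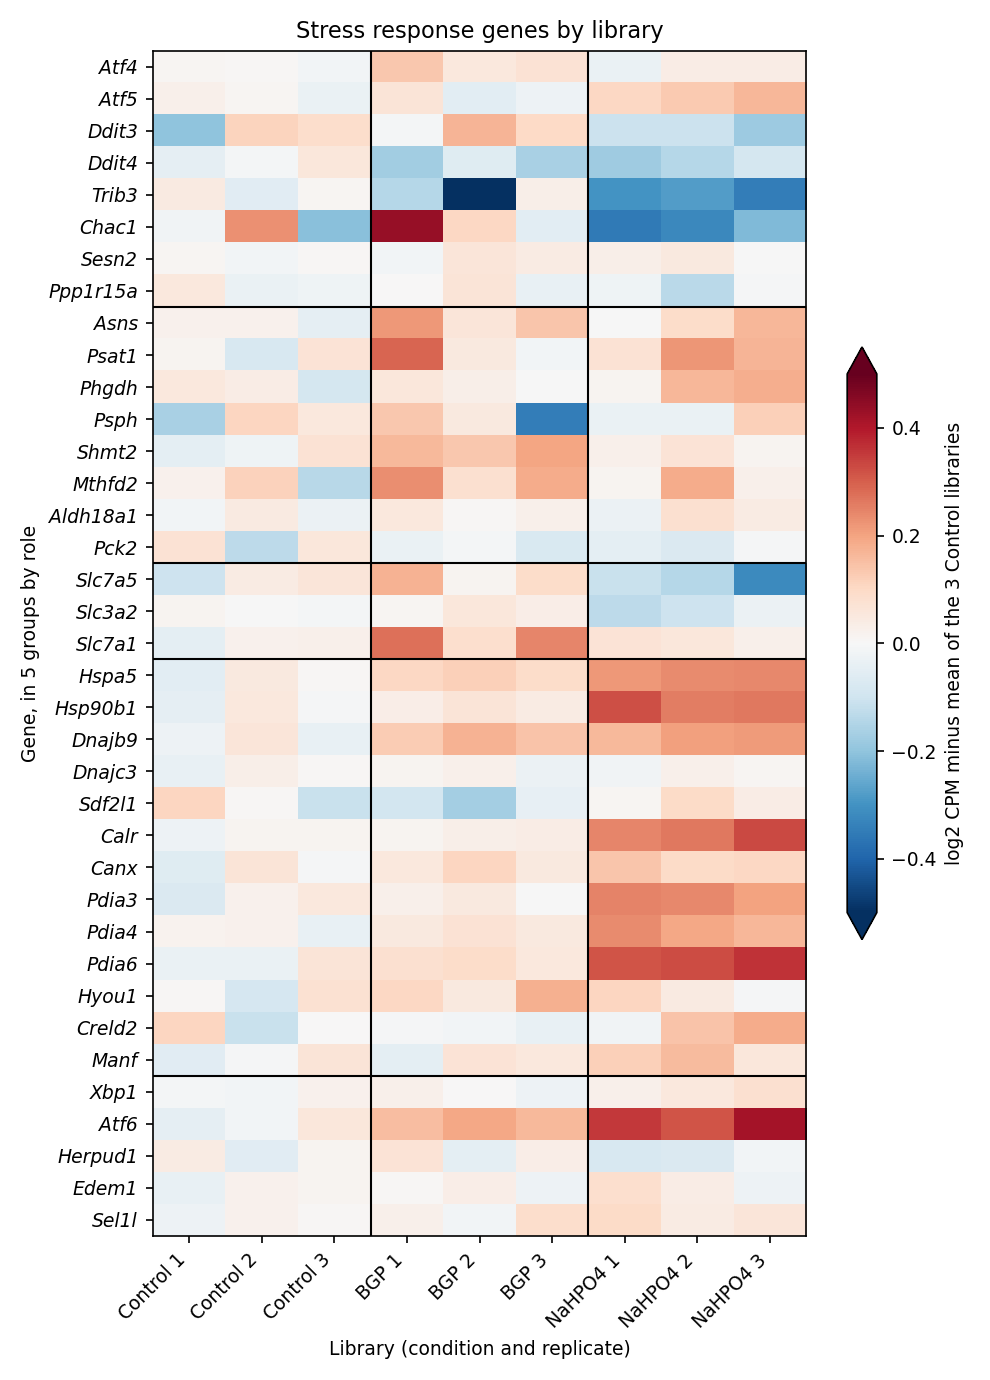
log2 CPM of the 37 genes in the 9 libraries, each minus the gene's mean over the 3 Control libraries (red above, blue below, colour limits -0.5 and 0.5), with lines between the conditions and between the 5 role groups. The genes that rose with NaHPO4 were 8 of the 13 ER chaperones, *Atf6* and *Atf5*, whereas *Trib3*, *Chac1*, *Psph* and *Ddit3* differed most between libraries of one condition.

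The ER chaperones and folding enzymes held most of the response to NaHPO4. Of the 13, 8 rose against Control (61.5%), 0 fell and 5 did not pass, where 3.43% of all tested genes rose. All 13 had a positive log2FC with NaHPO4 (median 0.19), and 11 of the 13 with BGP (median 0.05). Of all 13679 tested genes, 6843 were positive with NaHPO4 and 6623 with BGP. Over the 37 genes, 28 were positive with NaHPO4 and 30 with BGP. Together they took 3242 to 3399 CPM in Control, 3437 to 3494 CPM with BGP and 3891 to 3919 CPM with NaHPO4. The summed level of the osteoblast and osteocyte markers, the collagen gene *Col1a1* among them, moved the other way with NaHPO4. It was 55423 to 59162 CPM in Control, 54184 to 57800 CPM with BGP and 49461 to 52724 CPM with NaHPO4. The BGP range overlapped that of Control, and the part of this sum in these results was not tested.

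*Hspa5* encodes BiP, the HSP70 of the ER, which binds unfolded chains and keeps the ER stress sensors inactive. It stood at 435, 466 and 453 CPM in Control, 485, 489 and 481 CPM with BGP and 523, 532 and 533 CPM with NaHPO4. The 3 conditions did not overlap, and BGP lay between the other 2. The log2FC with NaHPO4 was 0.23 (SE 0.032, FDR = 2.59e-06), a rise of 17.3%, and with BGP 0.10 (SE 0.032, FDR = 0.0782), which did not pass the test except without Control 2 (FDR 0.0439) or with DESeq2. Between BGP and NaHPO4 it was -0.13 (FDR = 0.0109), a call that was lost without BGP 3 or NaHPO4 2 (FDR 0.0532 to 0.056). Its exons overlap those of *Rabepk* on the opposite strand over 44.2% of their length, and whether reads were counted by strand is not given in the sources used here.

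*Hsp90b1* encodes GRP94, the HSP90 of the ER. It stood at 641, 685 and 659 CPM in Control, 676, 691 and 681 CPM with BGP and 826, 791 and 794 CPM with NaHPO4. All 3 NaHPO4 libraries were above the other 6, among which BGP and Control overlapped. It rose with NaHPO4 by a log2FC of 0.28 (SE 0.032, FDR = 5.44e-08), against 0.05 with BGP (SE 0.032, FDR = 0.586). Of the *Hsp90b1* exon bases, 13.8% overlap *Gm66230* on the opposite strand.

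*Calr* and *Canx* encode calreticulin and calnexin, the lectin chaperones that hold newly made glycoproteins in the folding cycle. *Calr* stood at 606, 622 and 622 CPM in Control, 623, 630.0 and 633 CPM with BGP and 729.8, 740.5 and 775 CPM with NaHPO4. *Canx* stood at 319.5, 349 and 332 CPM in Control, 346, 359 and 345 CPM with BGP and 367, 356 and 358 CPM with NaHPO4. The soluble chaperone was separated in NaHPO4 from the other 6 libraries, while for the membrane-bound one the NaHPO4 libraries were above Control and overlapped BGP. *Calr* rose with NaHPO4 by a log2FC of 0.28 (SE 0.031, FDR = 3.95e-08) and *Canx* by 0.11 (SE 0.034, FDR = 0.0406). The call of *Canx* was lost without Control 1, Control 3, BGP 2, NaHPO4 1, NaHPO4 2 or NaHPO4 3 (FDR 0.053 to 0.28).

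The protein disulfide isomerases *Pdia3*, *Pdia4* and *Pdia6*, which form and rearrange disulfide bonds, rose with NaHPO4. *Pdia3*, whose product ERp57 works with calreticulin and calnexin, stood at 517, 552 and 565 CPM in Control, 553, 563 and 543 CPM with BGP and 646, 643 and 626 CPM with NaHPO4. *Pdia4* stood at 194, 194 and 186, 198, 201 and 198 and 225, 219 and 215 CPM in the same order of conditions. *Pdia6* stood at 208, 208 and 223, 225, 227 and 221 and 264, 266 and 273 CPM. For each of these isomerases every NaHPO4 library was above every BGP and Control library. The log2FC with NaHPO4 was 0.23 for *Pdia3* (SE 0.033, FDR = 5.76e-06), 0.20 for *Pdia4* (SE 0.034, FDR = 9.15e-05) and 0.33 for *Pdia6* (SE 0.035, FDR = 8.32e-09), a rise of 25.9% in the last. With BGP it was 0.02, 0.06 and 0.07, and none passed the test. Of the *Pdia3* exon bases, 13.4% overlap *Catsper2* on the opposite strand.

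*Dnajb9* encodes ERdj4, a co-chaperone of BiP that restrains IRE1. It stood at 25.6, 27.1 and 25.4 CPM in Control, 28.4, 29.4 and 28.8 CPM with BGP and 29.2, 30.0 and 30.2 CPM with NaHPO4. Libraries of both phosphates were above Control and overlapped each other. The log2FC was 0.19 with NaHPO4 (SE 0.059, FDR = 0.0369), and 0.15 with BGP (SE 0.061, FDR = 0.247), which did not pass. The call with NaHPO4 was lost with DESeq2 and without Control 1, Control 3, NaHPO4 2 or NaHPO4 3 (FDR 0.103 to 0.141).

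The 5 members of this group that did not pass with NaHPO4 were *Dnajc3* (P58IPK, a BiP co-chaperone that inhibits PERK), *Sdf2l1*, *Hyou1* (the ER exchange factor GRP170), *Creld2* and the secreted factor *Manf*. Their log2FC lay between 0.01 for *Dnajc3* (95% interval -0.07 to 0.08) and 0.11 for *Manf* (95% interval 0.01 to 0.21). Of the 13, 0 passed with BGP against Control by edgeR's quasi-likelihood test, 4 had an unadjusted p below 0.05, DESeq2 called 1 (*Hspa5*) and limma 0, and the median log2FC was 0.05. Of all tested genes, 13.4% had such a p with BGP against Control, and 2.05% were lower with BGP than with NaHPO4. Against NaHPO4, 6 of the 13 were lower with BGP, *Pdia6* (-0.26, FDR = 2.38e-06), *Calr* (-0.25, FDR = 5.65e-07), *Hsp90b1* (-0.24, FDR = 2.88e-06), *Pdia3* (-0.21, FDR = 5.36e-05), *Pdia4* (-0.14, FDR = 0.0072) and *Hspa5*. *Manf* shares 32.6% of its exon bases with *Rbm15b* on the same strand, so that its counts are uncertain.

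Read beside the promoter sequences above, 5 of the 7 chaperone genes with the ER stress response element rose with NaHPO4, with a median log2FC of 0.23, and *Creld2* (0.11) and *Dnajc3* (0.01) did not pass. Of the 4 chaperone genes whose window held no exact match, 3 rose (*Pdia3*, *Pdia4* and *Dnajb9*), with a median of 0.20 over the 4, and *Sdf2l1* (0.05) did not pass. Near matches were not counted, and the windows of *Pdia3* (ending in CCACA) and *Pdia4* (ending in CCACT) held copies altered in the last base. The ranges of both sets overlapped, from 0.01 to 0.33 with the element and from 0.05 to 0.23 without an exact match.

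**Figure D3:**
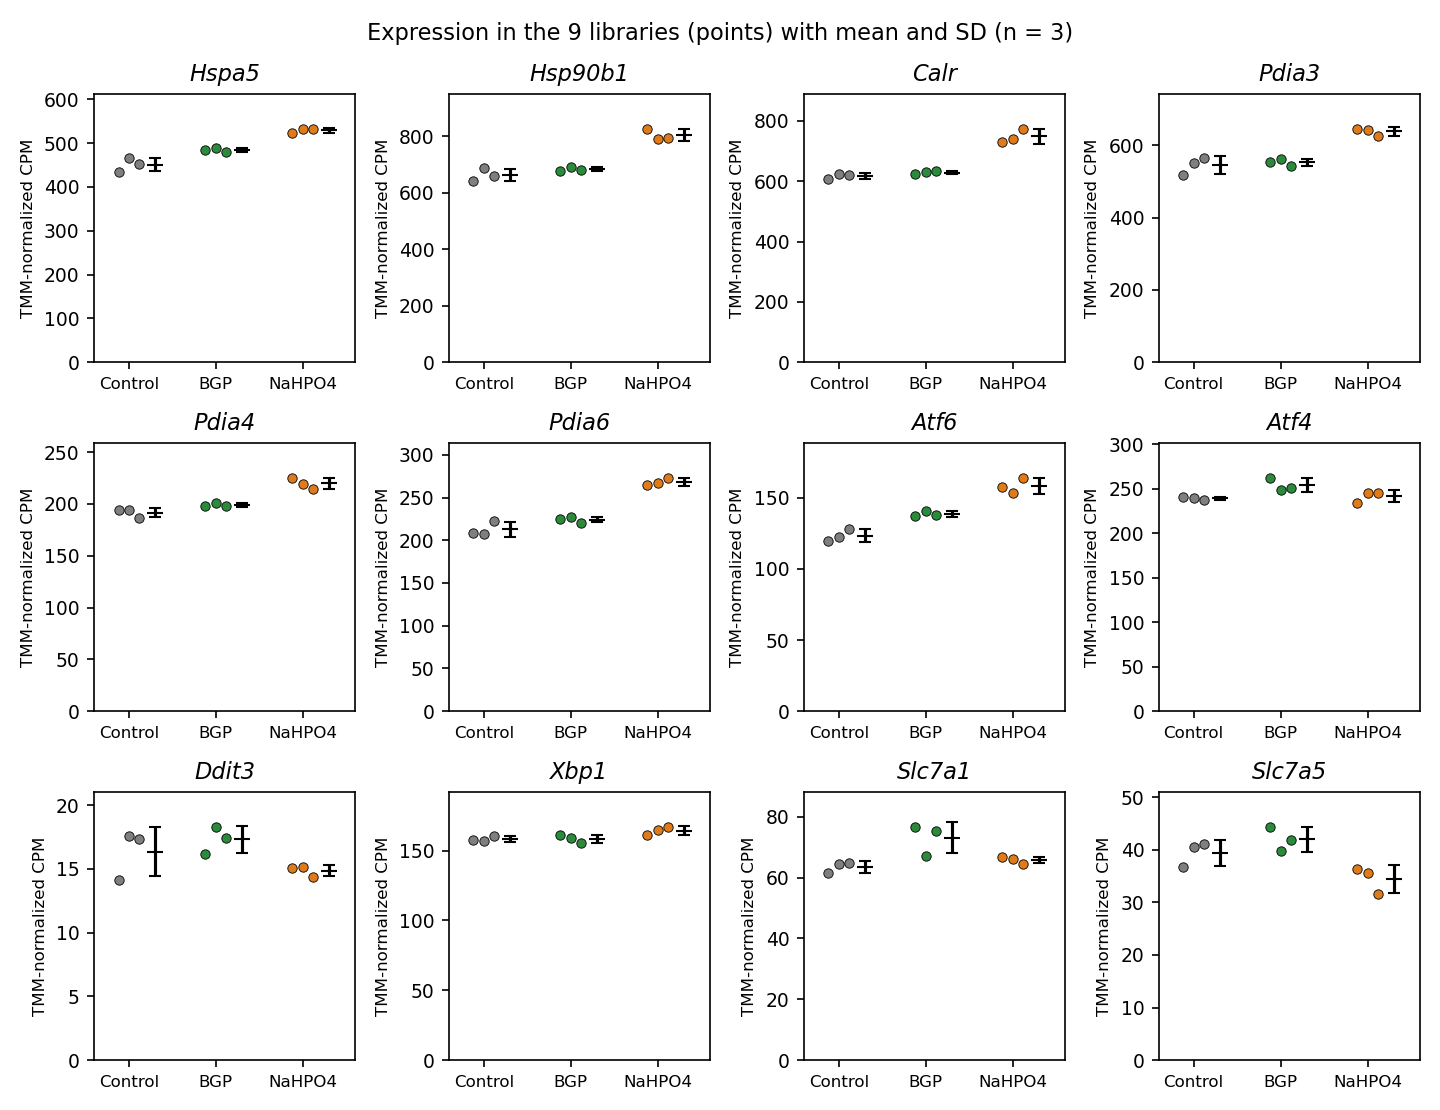
TMM-normalized CPM of 12 genes in the 9 libraries (points, replicates 1 to 3 from left to right), with the mean and SD of each condition beside them (n = 3) and axes from 0. The NaHPO4 libraries (orange) were above the rest for the 6 ER chaperones, *Atf6* and, by little, *Xbp1*, whereas for *Atf4*, *Ddit3* and *Slc7a1* they overlapped Control.

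Among the sensors, transcription factors and ERAD genes, *Atf6* was the gene that changed. It encodes the ER membrane protein whose cleaved part is a transcription factor for chaperone genes, and stood at 119, 122 and 128 CPM in Control, 137, 141 and 138 CPM with BGP and 158, 153 and 164 CPM with NaHPO4. The 3 conditions did not overlap, with BGP between the other 2. It rose with NaHPO4 by a log2FC of 0.36 (SE 0.037, FDR = 7.90e-09), or 28.4%, and with BGP by 0.17 (SE 0.038, FDR = 0.00762), or 12.4%. BGP was below NaHPO4 by -0.19 (SE 0.037, FDR = 0.000664). The call with BGP against Control was lost without Control 1 or BGP 2 (FDR 0.0576 to 0.0818), while without any 1 library the FDR was at most 5.51e-07 with NaHPO4 against Control and 0.0104 between the phosphates.

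*Xbp1*, the target of IRE1 splicing, stood at 157, 157 and 161 CPM in Control, 161, 159 and 155 CPM with BGP and 161, 164 and 167 CPM with NaHPO4. The NaHPO4 libraries were above the other 6 by little, and Control and BGP overlapped. Its log2FC was 0.05 with NaHPO4 (95% interval -0.02 to 0.12, FDR = 0.426) and 0.00 with BGP (95% interval -0.07 to 0.07). Counts per gene do not separate spliced from unspliced *Xbp1* mRNA, and 22.0% of its exon bases overlap *Ccdc117* on the opposite strand. *Herpud1*, *Edem1* and *Sel1l*, which serve the extraction and degradation of misfolded ER proteins, did not pass in any comparison, with log2FC between -0.06 and 0.07.

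Of the 8 regulators of the ATF4 axis, 1 rose (*Atf5*) and 1 fell (*Ddit4*) with NaHPO4, and 1 fell with BGP (*Ddit4*). Of all tested genes, 3.43% rose and 3.95% fell with NaHPO4, and 0.665% fell with BGP. With limma 0 of the 8 passed in any comparison, and by edgeR 2, 3 and 4 had an unadjusted p below 0.05 (BGP against Control, NaHPO4 against Control, BGP against NaHPO4). In the same order, 13.4%, 19.9% and 16.9% of all tested genes had such a p. *Atf4* stood at 241, 239.9 and 237 CPM in Control, 263, 248 and 251 CPM with BGP and 234, 245 and 245 CPM with NaHPO4. The BGP libraries were above Control, and the NaHPO4 libraries lay on both sides of Control. Its log2FC was 0.09 with BGP (SE 0.034, FDR = 0.22) and 0.01 with NaHPO4 (SE 0.034, FDR = 0.881), and neither passed. ATF4 is controlled largely in translation, which mRNA counts do not measure.

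*Atf5*, a relative of *Atf4* that is also translated under stress, stood at 172, 170.1 and 165 CPM in Control, 176, 163 and 166 CPM with BGP and 182, 185 and 189 CPM with NaHPO4. The NaHPO4 libraries were above the other 6, which overlapped. It rose with NaHPO4 by a log2FC of 0.13 (SE 0.036, FDR = 0.0165), was -0.00 with BGP against Control (FDR = 0.973), and differed between the phosphates by -0.14 (SE 0.036, FDR = 0.0166). The call with NaHPO4 was lost without Control 3, NaHPO4 2 or NaHPO4 3 (FDR 0.0526 to 0.0933), and that between the phosphates without BGP 2, BGP 3, NaHPO4 2 or NaHPO4 3 (FDR 0.057 to 0.148).

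*Ddit4* encodes REDD1, an inhibitor of mTORC1 that is induced by stress. It stood at 256, 262 and 274 CPM in Control, 234, 253 and 236 CPM with BGP and 233, 239 and 248 CPM with NaHPO4. Libraries of both phosphates were below Control and overlapped each other. It fell with BGP by a log2FC of -0.13 (SE 0.037, FDR = 0.0451) and with NaHPO4 by -0.14 (SE 0.037, FDR = 0.0133). The call with BGP was lost without Control 2, Control 3, BGP 1, BGP 3 or NaHPO4 2 (FDR 0.0624 to 0.252), and that with NaHPO4 without Control 3, NaHPO4 1 or NaHPO4 2 (FDR 0.057 to 0.112).

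*Ddit3* encodes CHOP, the factor tied to cell death after lasting ER stress. It stood at 14.2, 17.6 and 17.3 CPM in Control, 16.2, 18.3 and 17.4 CPM with BGP and 15.1, 15.1 and 14.4 CPM with NaHPO4. Control 1 was below every NaHPO4 library and the other 2 Control libraries above them, so that the conditions overlapped. The log2FC was 0.08 with BGP (SE 0.086, FDR = 0.76) and -0.14 with NaHPO4 (SE 0.085, FDR = 0.376), and 0.22 between the phosphates (SE 0.085, FDR = 0.146). Its exons overlap *Mars1* on the opposite strand over 64.1% of their length, which makes its level uncertain.

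The other 4 regulators passed in none of the comparisons. *Trib3*, a pseudokinase that restrains ATF4, and *Chac1*, which breaks down glutathione, are sensitive readouts of the axis and were low here. *Chac1* stood at 3.83, 4.57 and 3.35 CPM in Control, 5.28, 4.18 and 3.74 CPM with BGP and 3.02, 3.09 and 3.32 CPM with NaHPO4, with a log2FC of 0.48 between the phosphates (95% interval 0.14 to 0.83, FDR = 0.0956). *Trib3* stood at 5.61, 5.22 and 5.47 CPM in Control, 4.92, 3.23 and 5.54 CPM with BGP and 4.40, 4.46 and 4.26 CPM with NaHPO4, with a log2FC of -0.31 with NaHPO4 (95% interval -0.62 to -0.00, FDR = 0.25). For both genes all NaHPO4 libraries were below Control, as held for 11.6% of all tested genes. By edgeR's quasi-likelihood test the unadjusted p was 0.0497 for *Trib3* and 0.0757 for *Chac1*. Neither passed after adjustment over all tested genes. *Sesn2*, an inhibitor of mTORC1, and *Ppp1r15a*, which encodes GADD34 and brings a phosphatase to eIF2α, had log2FC between -0.05 and 0.06.

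Of the 8 enzymes of amino acid and one-carbon synthesis, 1 rose with BGP and 0 passed with NaHPO4. Of all tested genes, 1.86% rose with BGP and 7.38% passed with NaHPO4. *Shmt2*, the mitochondrial enzyme that splits serine into glycine and a one-carbon unit, stood at 70.1, 71.5 and 76.2 CPM in Control, 81.3, 79.6 and 83.2 CPM with BGP and 73.8, 76.0 and 73.3 CPM with NaHPO4. The BGP libraries were above the other 6. Its log2FC was 0.16 with BGP (SE 0.043, FDR = 0.0301), 0.03 with NaHPO4 (SE 0.042, FDR = 0.735) and 0.13 between the phosphates (SE 0.042, FDR = 0.0685). The call was lost without Control 1, Control 2, BGP 1 or BGP 3 (FDR 0.0965 to 0.189). Of the exon bases of *Shmt2*, 17.7% overlap *Ndufa4l2* on the opposite strand.

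The other 7 enzymes passed in none of the comparisons. *Asns*, the asparagine synthetase, and *Mthfd2*, the mitochondrial folate dehydrogenase, had log2FC with BGP near that of *Shmt2*, 0.14 (FDR = 0.118) and 0.17 (FDR = 0.126). Among the enzymes of serine synthesis, *Psat1* had a log2FC of 0.15 with NaHPO4 (FDR = 0.0955) and *Phgdh* of 0.12 (FDR = 0.143), while *Psph* was near 0.01. *Aldh18a1*, of proline synthesis, and *Pck2*, the mitochondrial phosphoenolpyruvate carboxykinase, stood at 0.03 and -0.05 with NaHPO4. With NaHPO4, 2 of the 8 had an unadjusted p below 0.05, where 19.9% of all tested genes did, and DESeq2 and limma called 0. Of the 50-base windows of *Phgdh* transcripts, 28.1% occur in other genes, mostly pseudogenes, so its counts are uncertain.

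The 3 amino acid transporters were higher with BGP than with NaHPO4, where this held for 3.33% of all tested genes. *Slc7a5* encodes LAT1, the carrier of large neutral amino acids, and stood at 36.6, 40.5 and 41.1 CPM in Control, 44.4, 39.7 and 41.9 CPM with BGP and 36.4, 35.6 and 31.5 CPM with NaHPO4. *Slc3a2* encodes its heavy chain CD98 and stood at 199, 197 and 196 CPM in Control, 199, 206 and 202 CPM with BGP and 180.1, 184 and 194 CPM with NaHPO4. Of the *Slc3a2* exon bases, 15.9% overlap *Snhg1* on the opposite strand. *Slc7a1*, the carrier CAT1 of cationic amino acids, stood at 61.4, 64.4 and 64.7 CPM in Control, 76.8, 67.2 and 75.3 CPM with BGP and 66.6, 66.0 and 64.5 CPM with NaHPO4. No BGP library overlapped a NaHPO4 library for any of the 3, where all BGP libraries were above for 10.8% of all tested genes. Both subunits of LAT1 were lowest with NaHPO4, whereas *Slc7a1* was highest with BGP and overlapped between NaHPO4 and Control.

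Between BGP and NaHPO4 the log2FC was 0.28 for *Slc7a5* (SE 0.060, FDR = 0.00212), 0.12 for *Slc3a2* (SE 0.035, FDR = 0.0287) and 0.15 for *Slc7a1* (SE 0.047, FDR = 0.0456). Against Control, *Slc7a1* rose with BGP (0.20, SE 0.047, FDR = 0.011) and *Slc7a5* fell with NaHPO4 (-0.19, SE 0.060, FDR = 0.0445), while *Slc3a2* did not pass with either. The difference of *Slc7a5* between the phosphates kept an FDR of at most 0.0359 without any 1 library. That of *Slc3a2* was lost without BGP 1, BGP 2, BGP 3, NaHPO4 1 or NaHPO4 2 (FDR 0.0532 to 0.129), and that of *Slc7a1* without BGP 1, BGP 3, NaHPO4 1, NaHPO4 2 or NaHPO4 3 (FDR 0.0569 to 0.278). Both were also lost with libraries scaled by total counts alone, and that of *Slc7a1* with DESeq2 or a replicate block. By limma all 3 differences were lost. The call of *Slc7a1* with BGP was lost without Control 1, BGP 1 or BGP 3 (FDR 0.0762 to 0.126), and that of *Slc7a5* with NaHPO4 without Control 2, Control 3, BGP 3, NaHPO4 2 or NaHPO4 3 (FDR 0.0503 to 0.26). The latter was also lost with DESeq2, total counts, only the 2 groups compared or limma (FDR 0.0507 to 0.296), and the former by limma.

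**Figure D4:**
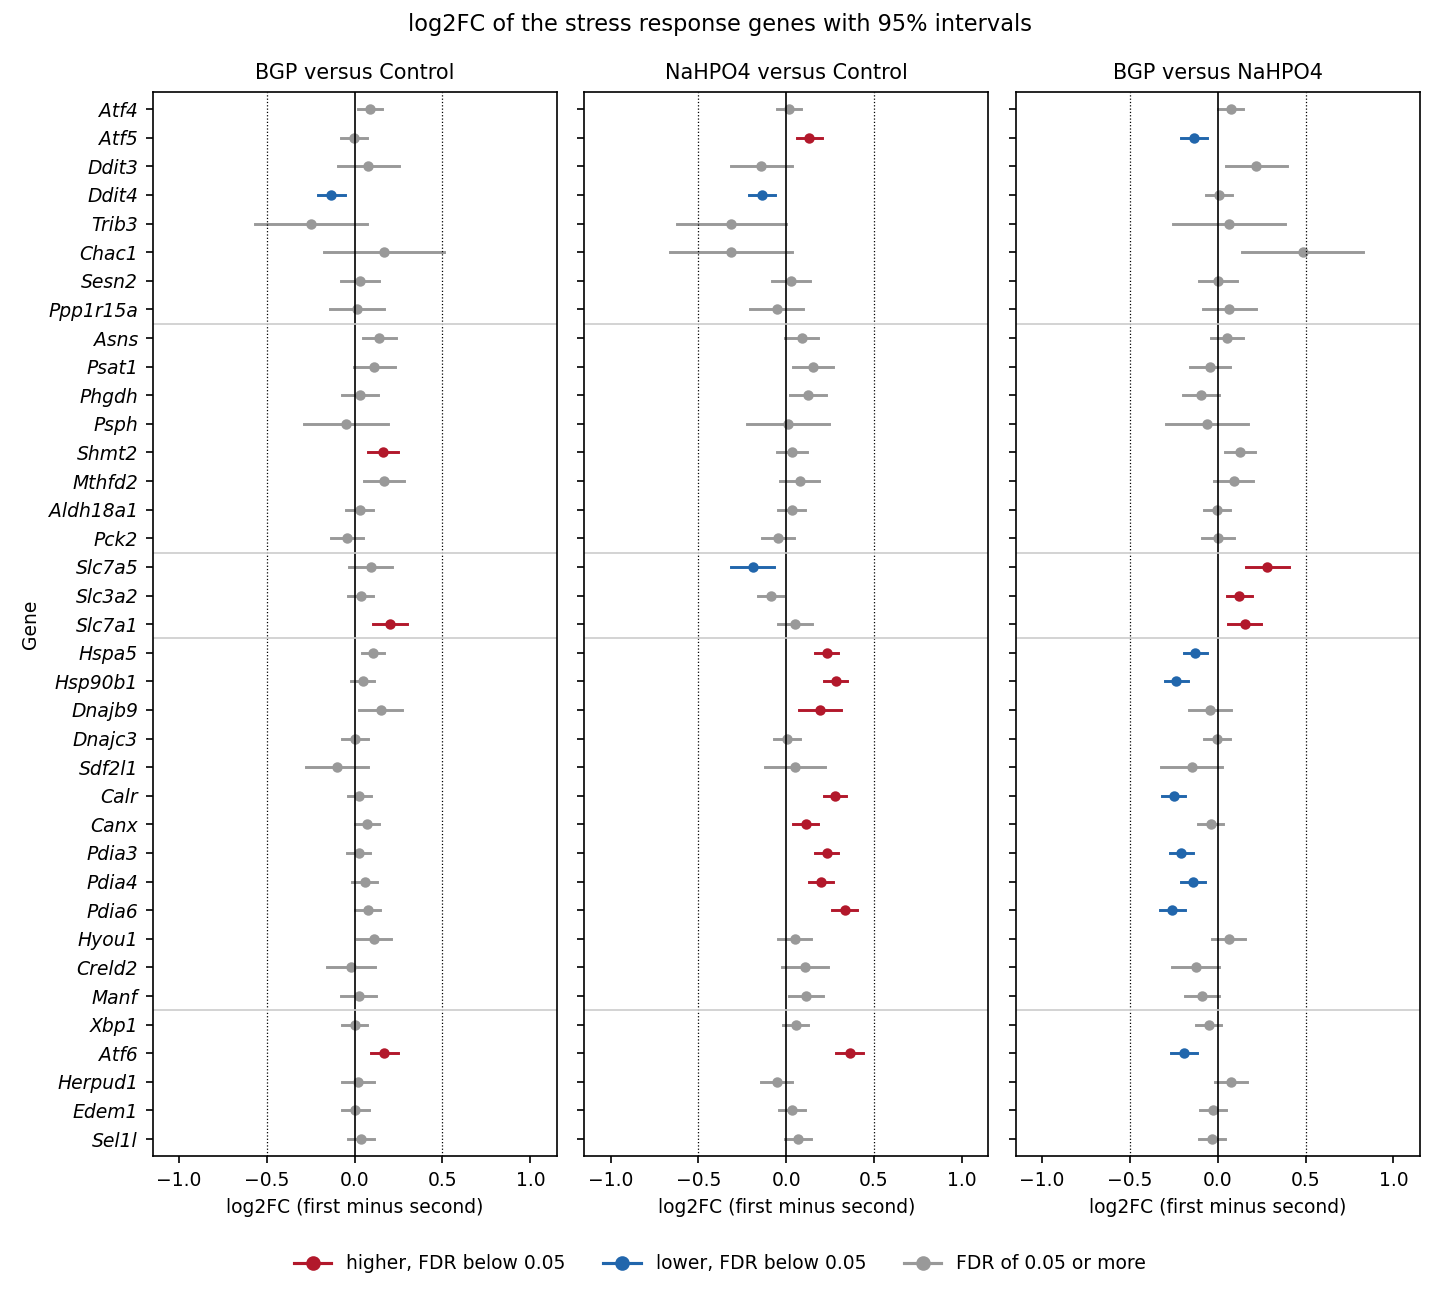
log2FC (points) with 95% intervals (lines) of the 37 genes in the 3 comparisons, red and blue where the FDR was below 0.05, with dotted lines at -0.5 and 0.5 and grey lines between the role groups. With NaHPO4 8 ER chaperones and *Atf6* were higher than Control, and BGP was below NaHPO4 for 6 of them and *Atf6* and above it for the 3 transporters.

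The rest of both pathways was read from 72 further genes, whose median SE of 0.044 to 0.045 was near that of the 37 genes. With BGP, 1 was higher and 3 were lower than Control (5.56%), with NaHPO4 4 were higher and 6 lower (13.9%), and between BGP and NaHPO4 6 were higher and 1 lower (9.72%), against the shares of all genes given above. Among 17 eIF2α kinases and stress factors, 3 fell with BGP and 4 with NaHPO4, and 0 rose with either. Of all tested genes, 0.665% fell with BGP and 3.95% with NaHPO4. *Txnip*, which encodes an inhibitor of thioredoxin and of glucose uptake, stood at 407, 415 and 438 CPM in Control, 353, 379.7 and 365 CPM with BGP and 332, 328 and 334 CPM with NaHPO4. The 3 conditions did not overlap, and the log2FC was -0.20 with BGP (FDR = 0.000267), -0.34 with NaHPO4 (FDR = 3.09e-09) and 0.15 between them (FDR = 0.00599), the last lost without BGP 2 (FDR 0.0719).

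*Nupr1*, a stress-induced chromatin protein, stood at 128, 126 and 123 CPM in Control, 126, 124 and 123 CPM with BGP and 112, 105 and 99.3 CPM with NaHPO4. It was below the other 6 libraries with NaHPO4, by a log2FC of -0.25 against Control (FDR = 2.49e-05), and 0.24 between BGP and NaHPO4 (FDR = 0.000119). *Cebpb*, a C/EBP partner of ATF4, fell with BGP (-0.26, FDR = 0.00197) and with NaHPO4 (-0.27, FDR = 0.000384). *Vldlr*, a lipoprotein receptor, fell with BGP (-0.17, FDR = 0.0227), a call lost without Control 3 or BGP 3 (FDR 0.149 to 0.244), and with NaHPO4 (-0.21, FDR = 0.000934).

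Among 12 further genes of amino acid metabolism and transport, 1 passed with each phosphate, where 2.53% of all tested genes passed with BGP and 7.38% with NaHPO4. *Slc38a2*, the carrier SNAT2 of small neutral amino acids, stood at 369, 380.2 and 369.6 CPM in Control, 427, 414 and 418 CPM with BGP and 394, 383 and 376 CPM with NaHPO4. BGP was above the other 6 libraries, by 0.17 against Control (FDR = 0.000835) and 0.13 against NaHPO4 (FDR = 0.0115), the latter lost without BGP 1, NaHPO4 2 or NaHPO4 3 (FDR 0.0583 to 0.0834). The glutamine carrier *Slc1a5* was higher with BGP than with NaHPO4 (0.17, FDR = 0.0048), a call lost without BGP 3 or NaHPO4 3 (FDR 0.0582 to 0.066). *Aldh1l2*, of mitochondrial folate metabolism, rose with NaHPO4 (0.18, FDR = 0.00112). Of 12 aminoacyl-tRNA synthetases, which charge tRNAs and include known ATF4 targets, 1 (*Mars1*, outside the rule for named genes) rose with NaHPO4 and 0 passed with BGP by edgeR, with 4 at an unadjusted p below 0.05 and 0 by DESeq2 or limma. Of all tested genes, 3.43% rose with NaHPO4, and 13.4% had such a p with BGP. All 12 had a positive log2FC with BGP (median 0.07), and 10 with NaHPO4 (median 0.02).

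Among 31 further genes of ER folding, translocation and ERAD, 2 rose and 2 fell with NaHPO4, where 3.43% and 3.95% of all tested genes did. Between BGP and NaHPO4, 2 were higher and 1 was lower with BGP, where 3.33% and 2.05% of all tested genes were. With BGP 0 passed by edgeR, DESeq2 or limma, and 3 had an unadjusted p below 0.05, where 13.4% of all tested genes did. *P4hb*, which encodes the disulfide isomerase PDI, a subunit of collagen prolyl 4-hydroxylase, stood at 1199.6, 1209 and 1259.8 CPM in Control, 1250.4, 1229 and 1219 CPM with BGP and 1311, 1325 and 1358 CPM with NaHPO4. NaHPO4 was above the other 6 libraries, by 0.12 against Control (FDR = 0.00772), a call lost without Control 1 (FDR 0.0658). *P4hb* was lower with BGP than with NaHPO4 (-0.11, FDR = 0.0217), a call lost without BGP 2, BGP 3, NaHPO4 2 or NaHPO4 3 (FDR 0.0669 to 0.0991). Both calls of *P4hb* were also lost by limma. *Creb3l1*, which encodes OASIS, a factor for collagen genes in osteoblasts, was higher with BGP than with NaHPO4 (0.16, FDR = 0.00215). It also fell with NaHPO4 against Control (-0.11, FDR = 0.049), a call lost without any 1 of 7 libraries (FDR 0.0542 to 0.166).

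Per kb of merged exons, *Calr* was the highest of the 37 genes in Control, at 162 CPM per kb, followed by *Pdia3* at 116, *Hsp90b1* at 108, *Atf4* at 101, *Ddit4* at 97.3, *Hspa5* at 81.2 and *Atf5* at 78.5. The lowest were *Trib3* at 1.60, *Chac1* at 1.51 and *Psph* at 1.25 CPM per kb. With NaHPO4 *Calr* stood at 196, *Pdia3* at 136, *Hsp90b1* at 131 and *Hspa5* at 95.3 CPM per kb, against 165, 118, 112 and 87.3 with BGP. Exon lengths came from a later annotation than the one the authors counted on, so these levels are approximate. The spread between libraries of a condition was small, with a median coefficient of variation of 3.07% over the 37 genes, from 1.66% to 15.3%, and of 2.65% over the 13 ER chaperones.

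**Figure D5:**
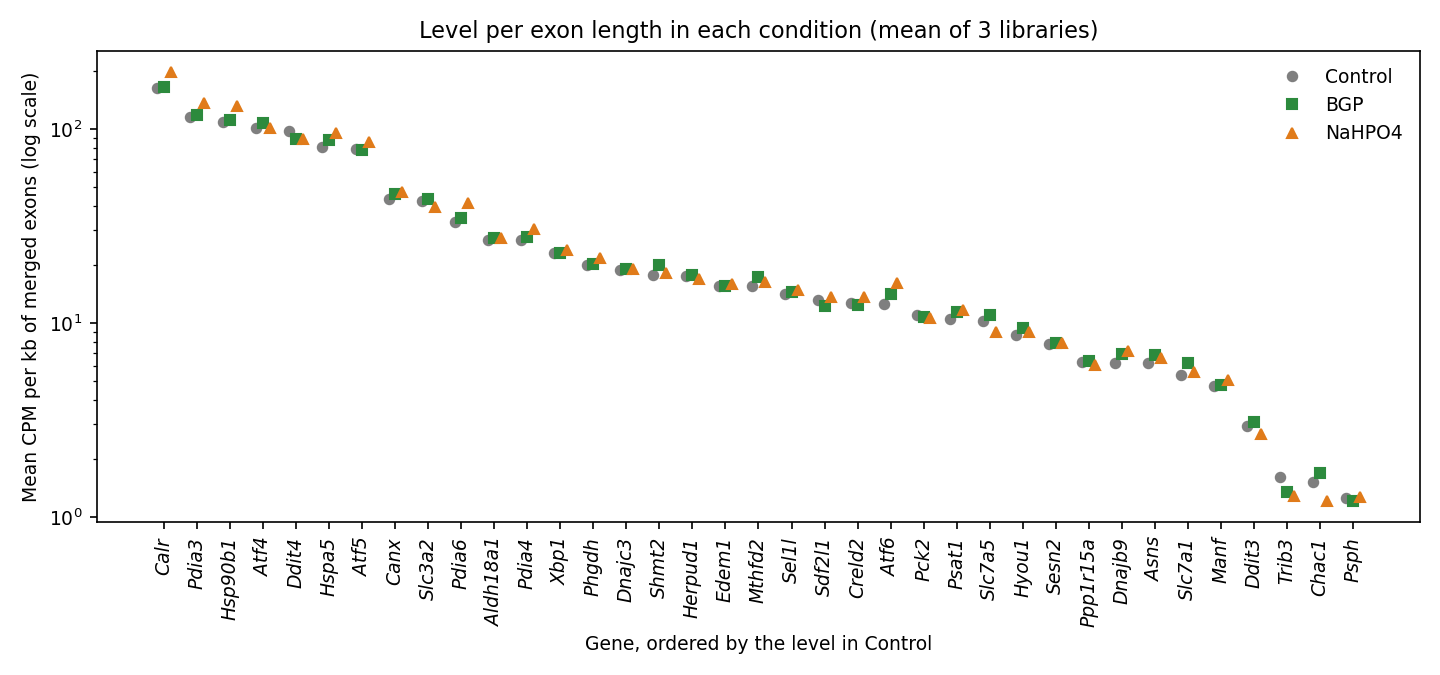
Mean CPM per kb of merged exons (log axis) of the 37 genes in Control, BGP and NaHPO4 (n = 3 each), ordered by the level in Control. The genes spanned from 162 CPM per kb for *Calr* to 1.25 for *Psph*, and the differences between conditions were small beside those between genes.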

How the data were processed

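RNA sequencing of 9 libraries of MC3T3-E1 cells was used, 3 each of Control, BGP and NaHPO4, grouped by the treatment in the sample labels. The authors prepared stranded poly(A) libraries, ran quality control with FastQC and mapped the reads to GRCm39 in the AIR software. The aligner, the counting program and its use of strand are not given in the sources used here. The authors deposited a table of whole-number read counts per gene without normalization, and a second table of TMM-normalized signal, where 1 factor per library (1.01 to 1.32) multiplies its counts. The second table was used for gene names and for an alternative. In both, 0 columns belonged to other samples.

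Tests started from the deposited counts, with filterByExpr (count minimum 10), TMM and a coefficient for each condition, fitted to all 9 libraries with glmQLFit and glmQLFTest of edgeR 4.0.16 in R 4.3.3, adjusted by Benjamini-Hochberg over 13679 genes. The study's methods name edgeR, an FDR below 0.05 and a log2FC above 0.5. DESeq2 1.42.0 and limma 3.58.1 served as alternatives, beside other scalings and filters, a fit of the 2 groups compared, an FDR of 0.01, a replicate block, and fits that omit 1 library. Total counts lay between 21390839 and 28234404, so that 10 counts were at most 0.467 CPM. SEs were derived from the quasi-likelihood F statistic. The fit was tested on simulated data made from these libraries' means.

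Library values were given for genes that passed in at least 1 comparison, for *Atf4*, *Ddit3*, *Hspa5* and *Xbp1*, and for *Trib3* and *Chac1*, added after their values were seen. Of other pathway genes, up to 6 per comparison were named by smallest FDR. The genes, lists and comparisons were chosen with earlier results of these data known. Exons, overlaps and 50-base windows shared between genes came from GENCODE mouse release 39 (GRCm39), and promoter windows from RefSeq (GRCm38.p6), placed on GRCm39 by exact match with pysam 0.24.0.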

Additional observations from a re-analysis of the deposited data

How the results depend on the processing

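Across 17 alternatives per comparison, 7 of the 12 calls with NaHPO4 against Control (*Atf6*, *Calr*, *Hsp90b1*, *Hspa5*, *Pdia3*, *Pdia4* and *Pdia6*) kept an FDR of at most 0.0448, as did 3 of the 11 between BGP and NaHPO4 (*Calr*, *Hsp90b1* and *Pdia6*) at 0.0447 or less, and 0 of the 4 with BGP against Control. No gene of the list was a DEG under any alternative. The number of genes higher with BGP than Control, 3, was 0 by limma, 1 at an FDR below 0.01 and 0 to 4 with a library left out, and the number lower, 1, was 0 by limma, 0 at an FDR below 0.01 and 0 to 1 with a library left out. The ER chaperones higher with BGP, 0, were 1 by DESeq2 and 0 to 1 with a library left out. The number higher with NaHPO4, 10, ranged from 7 to 11. The number lower, 2, was 1 by DESeq2, with total counts or with only the 2 groups compared, 0 by limma or at an FDR below 0.01, and 0 to 2 with a library left out. Of the genes higher with BGP than NaHPO4, 3, total counts gave 1, limma 0, an FDR below 0.01 gave 1 and leaving out a library 1 to 3. The 8 genes lower with BGP than NaHPO4 were 3 by limma and 6 to 8 with a library left out, and the 6 ER chaperones among them 3 by limma and 5 to 6. Each count with a library left out rests on fewer libraries.

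No call changed direction. Some log2FC near 0 did. For BGP against Control, *Atf5* ranged from -0.039 to 0.021, *Pdia3* from -0.014 to 0.050, *Ddit3* from -0.012 to 0.132 and *Xbp1* from -0.011 to 0.014 with a library left out, and *Xbp1* was -0.0018 with total counts and -0.0028 by limma. For BGP against NaHPO4, *Ddit4* ranged from -0.028 to 0.030 with a library left out and was -0.021 with total counts and -0.010 by limma. With total counts in place of TMM, the share of all calls that were higher went from 46.5% to 65.3% with NaHPO4 against Control and from 62.0% to 39.5% between BGP and NaHPO4, and the median log2FC of all genes moved to 0.02 and -0.03.

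Replicate numbers are shared by the conditions, and the labels do not say that they mark a shared culture or day. The mean correlation of deviations between same-numbered libraries was 0.01, against -0.0063 for different numbers. Between Control and NaHPO4 it was 0.030, 0.043 and 0.041 for same numbers and -0.046 to 0.0022 for different numbers. Same-numbered libraries gave 0.024, -0.0042 and -0.0092 between Control and BGP, and -0.0039, -0.0055 and -0.0011 between BGP and NaHPO4. Whether a culture or day was shared cannot be told from these values. With the replicate number as a replicate block, 3 genes were higher and 1 lower with BGP, 10 higher and 2 lower with NaHPO4, and 2 higher and 8 lower between BGP and NaHPO4, where *Slc7a1* lost its call.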

Other observations

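Of 12 genes of the cytosolic heat shock response, the counterpart of the unfolded protein response outside the ER, 10 passed the filter, and *Hspa1a* and *Hspb1* had at most 8 counts in a library. By edgeR's quasi-likelihood test 0 of the 10 passed with BGP against Control (2 at an unadjusted p below 0.05, 1 by DESeq2 and 0 by limma), 1 with NaHPO4 (*Hsp90ab1*, log2FC 0.10, FDR = 0.0314) and 1 between BGP and NaHPO4 (*Hspa8*, log2FC 0.12, FDR = 0.0133). With NaHPO4 against Control, 3 had an unadjusted p below 0.05, DESeq2 called 1 higher and 1 lower, and limma called 0. Between BGP and NaHPO4, 3 had such a p, DESeq2 called 1 and limma 0. Of all tested genes, 13.4% had such a p with BGP, 19.9% with NaHPO4 and 16.9% between the phosphates. *Hsp90ab1*, a cytosolic HSP90, stood at 1171, 1153 and 1168 CPM in Control and at 1209, 1272 and 1265 CPM with NaHPO4, and its call was lost without any 1 of 5 libraries. *Hspa8*, the constitutive HSP70 of the cytosol, was lowest with NaHPO4. The call of *Hspa8* was lost without BGP 1 or NaHPO4 2 (FDR 0.0876 to 0.104), and with total counts or limma. The median log2FC of the 10 genes was 0.05 with BGP and 0.01 with NaHPO4, beside 0.05 and 0.19 for the 13 ER chaperones. With NaHPO4 the 10 genes ranged from -0.34 to 0.10 and the 13 ER chaperones from 0.01 to 0.33.

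The ATF4 targets *Slc7a11* and *Cbs* and the stress hormone gene *Stc2* did not pass the filter, with at most 8, 1 and 2 counts in a library, and the ERAD gene *Derl3* had 0 counts in every library. *Atf3*, a stress-induced partner of the ATF4 axis, stood at 0.52 to 1.10 CPM over the 9 libraries, and *Gdf15*, a secreted stress signal, at 1.24 to 1.84 CPM, and neither passed in any comparison.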
